A study of Mus musculus with 4 samples.

Results

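The enzymes that build and sulfate the sugar chains of proteins and lipids were examined in lymphatic endothelial cells of the aged mouse meninges, with and without delivery of the lymphatic growth factor VEGF-C. They were chosen by gene symbol, with no measured value in the rule, as the rows that belong to families of glycosyltransferases, carbohydrate sulfotransferases, sugar-nucleotide enzymes, glycan-trimming enzymes and enzymes of glycosylphosphatidylinositol (GPI) anchor synthesis. The families were picked with earlier results of these data known, including those for Ust and Gmppb. This gave 89 genes of the 9114 in the table. GENCODE vM21 annotates 200 protein-coding genes whose symbols fit the same pattern, and the other 111 are not analysed here.

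All libraries came from male C57BL/6J mice aged 20 to 24 months that had received 5 µL of an AAV1 vector into the cisterna magna 4 weeks before. In 2 libraries (mVEGF-C) the vector encoded mouse VEGF-C and in the other 2 (eGFP) the fluorescent protein eGFP, both driven by the CMV promoter, which is not restricted to a cell type. Each library held sorted CD45-, CD31+, podoplanin+ cells from the combined meninges of 10 mice, so a value is an average over a pool. The comparison asks what a local supply of VEGF-C did to the transcripts of these cells.

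Glycosylation is assembled in a fixed order. N-glycans are built on the lipid dolichol in the endoplasmic reticulum (ER), moved onto the protein by the oligosaccharyltransferase, trimmed, and then extended in the Golgi with galactose, fucose and sialic acid. Glycosaminoglycans are long chains grown on proteoglycan core proteins from a short linker and sulfated from the donor PAPS. In lymphatic vessels, heparan sulfate binds growth factors and presents the chemokine CCL21, whose gene is a marker of these cells.

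All 8 lymphatic endothelial markers examined were present in every library, with a summed level of 473403 to 540961 normalised counts (reads divided by a size factor per library) in eGFP and 497286 to 601045 in mVEGF-C libraries. The 7 meningeal fibroblast markers in the table, none of them at 0, summed to 78306 and 38869 in eGFP and 85263 and 53524 in mVEGF-C libraries. Of 8 mural markers 4 were present, none at 0, and summed to 15367 to 18643 in eGFP and 10108 to 12711 in mVEGF-C libraries. These sums do not overlap, but singly only Notch3 had its groups apart, with mVEGF-C the lower, as for 19.8% of all genes. Groups overlapped for Rgs5, the largest part of each sum, Pdgfrb and Kcnj8. The mean of Pdgfrb was higher in mVEGF-C libraries (2798 against 1794). The 6 general endothelial markers, none at 0, summed to 75196 and 86474 in eGFP and 97820 and 95481 in mVEGF-C libraries. These sums do not overlap either. Singly, Pecam1, Cdh5 and Tie1 had groups apart, with mVEGF-C the higher, as for 19.4% of all genes. Groups overlapped for Tek, Kdr and Emcn. The 6 blood endothelial markers present, none at 0, summed to 19712 and 44231 in eGFP and 29666 and 30395 in mVEGF-C libraries. Of 9 leukocyte markers 3 were present, with 23429 to 33202 in all, nearly all of it from Mrc1, which lymphatic endothelium also expresses, and 1 of them (Cd3e) was at 0 in a library. Of those with a mean of at least 10, none passed the test described next. The part of these other cells in the results below was not tested. Fewer cells of a type and less RNA per cell cannot be told apart in such libraries. Summed over the 9114 genes of the table, reads numbered 25610683 to 28632461 per library, and those of genes outside it are not included.

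Of the 89 enzymes, all passed the filter on low values (a mean of at least 10 normalised counts) and were measured above 0 in every library. With VEGF-C, Ust, Gmppb and Alg3 rose and Pigo fell, by a limma fit with p-values adjusted over all 9063 genes tested and a threshold of 0.05. The 3 that rose are 3.37% of the enzymes, beside 0.828% of all genes, and the 1 that fell is 1.12%, beside 1.31%. In either direction this is 4.49% beside 2.14%. The results for Ust and Gmppb were known when the families were picked. The shares here and below thus describe the set and do not test for an excess. The 3 that rose had eGFP means of 5.00 (Ust), 5.99 (Gmppb) and 7.34 (Alg3), below the filter. They passed it only through the mVEGF-C libraries, in which they were high, so passing it is no support for the rise. Without the filter the same 4 enzymes were called. The remaining enzymes did not pass the test. Before adjustment, limma gave 16 enzymes a p under 0.05, of which 10 were higher (11.2%, beside 5.09% of all genes) and 6 lower (6.74%, beside 6.7%). All 16 are described below. Rows of the table appear limited to genes whose replicates lay within a set distance, so the spread is understated and p-values are too small by an unknown amount. Of the 89, 51 had a log2 fold change above 0 (57.3%, beside 49.5% of all genes), with a median of 0.23 beside -0.02. This median depended on single libraries: it was 0.35 without eGFP 1 (47 above 0), 0.037 without eGFP 2 (45), 0.14 without mVEGF-C 1 (52) and 0.043 without mVEGF-C 2 (46).

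Values differed widely between the libraries of one group. The median absolute difference between the eGFP libraries was 1.01 on the log2 scale over the enzymes (0.94 over all genes) and that between the mVEGF-C libraries 1.32 (1.07), while the median absolute fold change was 0.95 (0.79). For 24 enzymes the lowest mVEGF-C value exceeded the highest eGFP value (27.0%, beside 19.4% of all genes) and for 18 the reverse held (20.2%, beside 19.8%), which is 47.2% in either direction beside 39.2%. The enzymes together took 0.563% and 0.637% of the normalised counts in the eGFP and 0.571% and 0.598% in the mVEGF-C libraries. These groups overlap, so the summed level of the enzymes did not separate them.

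**Figure D1:**
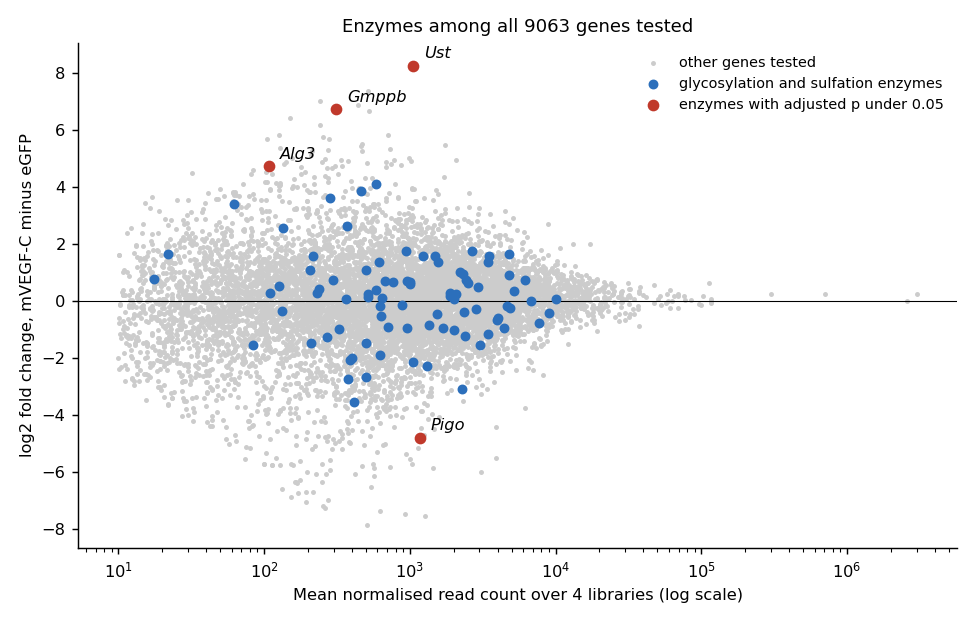
Mean normalised read count over the 4 libraries (horizontal, log scale) against the log2 fold change, mVEGF-C minus eGFP (vertical), for all 9063 genes tested (grey), the 89 enzymes (blue) and the 4 enzymes with an adjusted p under 0.05 (red). Most enzymes lie within the cloud of all genes, and Ust at 8.25 has the highest fold change of all.

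Promoters of Ust, Alg3 and Pigo, which passed the test, are shown because they are the stretches from which these transcripts start. Each spans 250 bases before to 50 after the start of the gene in RefSeq (GRCm38.p6), written 5′ to 3′ on the strand of the gene. Capitals mark a CCAAT box (CCAAT) or a GC box (GGGCGG), searched on both strands, so that a GC box of the other strand reads CCGCCC. No promoter is printed for Gmppb, and of 2 overlapping windows for Pigo the first listed is shown. The windows lie at chr10:8518776-8519075 for Ust, chr16:20610712-20611011 for Alg3 and chr4:43025765-43026064 for Pigo, all on the minus strand.
Ust: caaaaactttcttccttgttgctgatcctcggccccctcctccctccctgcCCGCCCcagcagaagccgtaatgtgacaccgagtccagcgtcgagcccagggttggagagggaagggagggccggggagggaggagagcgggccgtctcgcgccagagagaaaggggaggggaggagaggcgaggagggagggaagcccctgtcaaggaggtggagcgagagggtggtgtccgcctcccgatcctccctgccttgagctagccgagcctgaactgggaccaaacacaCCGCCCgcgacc
Alg3: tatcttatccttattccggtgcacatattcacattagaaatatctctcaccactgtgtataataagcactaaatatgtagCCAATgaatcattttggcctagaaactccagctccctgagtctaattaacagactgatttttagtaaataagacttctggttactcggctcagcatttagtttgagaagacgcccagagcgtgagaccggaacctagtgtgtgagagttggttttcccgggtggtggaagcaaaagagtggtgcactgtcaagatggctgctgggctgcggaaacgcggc
Pigo: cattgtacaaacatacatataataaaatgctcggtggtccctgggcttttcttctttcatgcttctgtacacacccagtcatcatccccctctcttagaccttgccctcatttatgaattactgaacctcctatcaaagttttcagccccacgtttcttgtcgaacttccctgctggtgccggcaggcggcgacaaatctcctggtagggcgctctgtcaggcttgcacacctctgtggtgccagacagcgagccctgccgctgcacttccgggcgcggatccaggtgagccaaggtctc

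The Ust promoter is 66.3% G and C with 19 CpG and has 2 GC boxes, both on the opposite strand. That of Alg3 is 44.7% G and C with 9 CpG and has 1 CCAAT box. Pigo, at 53.3% with 12 CpG, has neither motif in this window. Over 32851 such promoters, 37.4% hold a CCAAT box and 35.7% a GC box, and over the 86 promoters found for 68 of the enzymes the shares are 48.8% and 61.6%. Further motifs searched on both strands were the cAMP response element (TGACGTCA, 1.79% of all and 3.49% of the enzyme promoters), the CACGTG E-box (7.15% and 3.49%), the unfolded protein response element (TGACGTGG, 0.676% of all) and the ER stress element (0.119% of all). The last 2 were in none of the 86 enzyme promoters, and a CCAAT match within an ER stress element is counted for both. A match is a run of letters and does not show binding.

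Chondroitin and dermatan sulfate enzymes included the highest fold change of the 89. Ust, which adds sulfate to the uronic acid of these chains, had 3.58 and 6.41 normalised counts in the eGFP libraries, from 4 and 6 reads, and 3257 and 972 in the mVEGF-C libraries, from 3049 and 1046 reads. The groups were far apart although the mVEGF-C libraries themselves differed by 1.74 on the log2 scale. The mean ± SD was 5.00 ± 2.00 and 2114 ± 1616 (n = 2 each), and the fitted log2 fold change was 8.25, with 95% limits of 5.72 and 10.79 (limma adjusted p = 7.78e-07). It remained past the threshold with each library left out, at 7.38 to 9.13 (limma adjusted p up to 0.00314). Ust lies on chromosome 10 (8204756 to 8518825, GRCm38), and no annotated exon of another gene overlaps its exons.

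The other 7 genes of this group did not pass the test. Chst15, which sulfates the GalNAc of chondroitin a further time, was the most abundant of them, at 7386 and 6311 in eGFP and 5758 and 7838 in mVEGF-C libraries, and its groups overlapped. Its log2 fold change of -0.02 has an interval of -1.27 to 1.22. Chst11, a chondroitin sulfotransferase, stood at 776 and 487 against 1881 and 1798 (1.58, SE 1.06). Chsy1, a chondroitin-chain polymerase, was at 1870 and 1632 against 1011 and 925 (-0.85, SE 1.02). Chst3 at -1.50 and the chain-starting enzyme Csgalnact1 at -1.56 had the lowest fold changes of the group. Of the 8 genes, Ust and Chst11 had groups apart with mVEGF-C the higher, and Chsy1 and Chst3 with it the lower. Groups apart in these directions were seen for 19.4% and 19.8% of all genes. Dsel, an epimerase that turns chondroitin into dermatan sulfate, was at 0.06, so the enzymes that make the substrate of Ust were on both sides of 0.

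Of the sulfate donor and linker genes, 2 of 4 had groups apart, both with mVEGF-C the lower, as for 19.8% of all genes. Papss2, which makes PAPS, had 1189 and 683 in eGFP and 111 and 526 in mVEGF-C libraries, with the groups apart (log2 fold change -1.89, SE 1.18, limma adjusted p = 0.582). B3gat3, which adds the glucuronic acid that completes the linker, had 328 and 1364 against 41.7 and 255 (-2.68, SE 1.24, limma adjusted p = 0.326). Xylt1, which places the first xylose on the core protein, had 312 and 784 against 337 and 4800 and B4galt7, which adds the next sugar, stood at 0.14. The fold change of Xylt1, 1.36, rested on mVEGF-C 2 and was -0.55 without that library.

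Among heparan sulfate enzymes 0 of 6 passed in limma, edgeR or DESeq2, and 1 of them, Extl3, had an unadjusted limma p under 0.05. The chain polymerase Ext1 had 1495 and 2001 in eGFP and 7512 and 2675 in mVEGF-C libraries, which gave 1.37 on the log2 scale (SE 0.85). Extl3, which starts the chain, had 2297 and 2106 against 10202 and 4586 (1.64, SE 0.77, limma adjusted p = 0.347). For both, the mVEGF-C libraries lay above the eGFP libraries, as for 19.4% of all genes, with mVEGF-C 1 the highest. Ext2, the partner of Ext1 in the polymerase, was at -0.41 with overlapping groups. Ndst1, which begins the sulfation of heparan sulfate, was at 0.07 (interval -1.76 to 1.90) and Hs2st1, a further heparan sulfate sulfotransferase, at -0.95 (interval -2.89 to 0.99). Sulf2, an extracellular enzyme that removes sulfate from finished chains, ranked 1 of the 89 enzymes by level per length of exon, at 1706 normalised counts per kilobase beside a median of 169. It had 7277 and 12694 in eGFP and 9361 and 10734 in mVEGF-C libraries, so the eGFP libraries lay on both sides (0.06, interval -1.02 to 1.14).

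**Figure D2:**
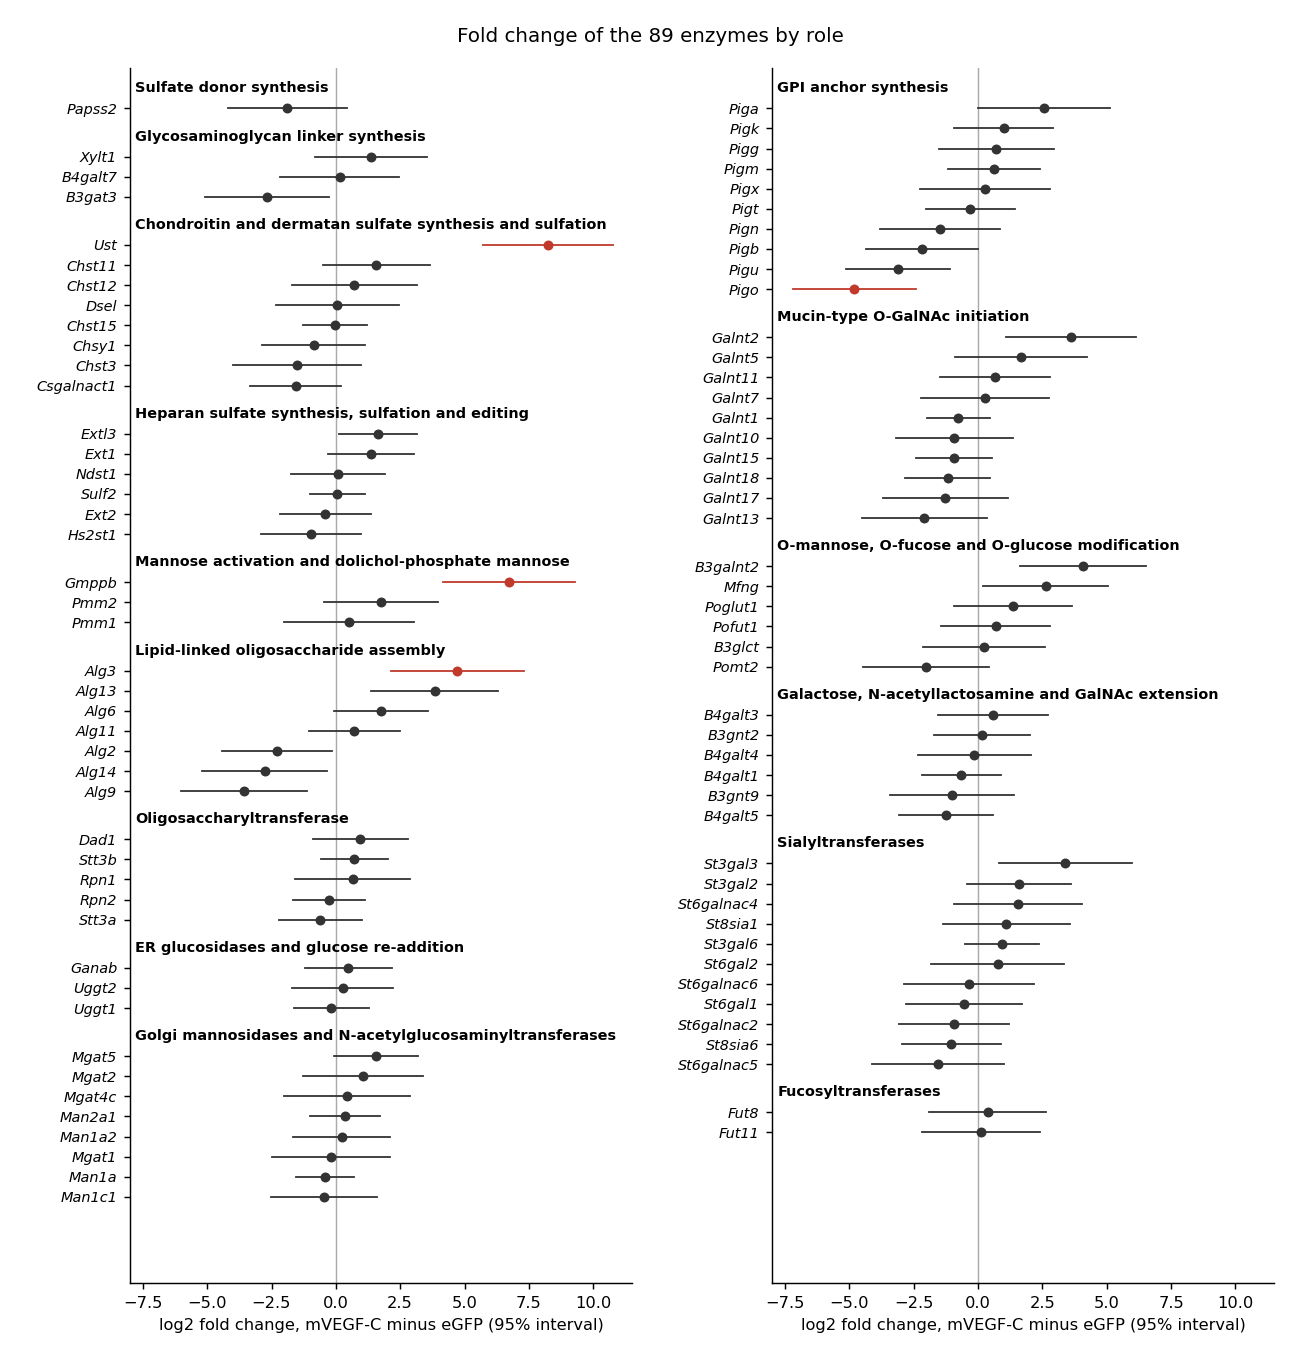
Log2 fold change, mVEGF-C minus eGFP, of each of the 89 enzymes (points) with its 95% interval from limma (lines), grouped by role, with red for an adjusted p under 0.05. The lipid-linked oligosaccharide group spans -3.57 to 4.72, while the oligosaccharyltransferase group keeps between -0.60 and 0.95. Their median levels are 465 and 4021 normalised counts.

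Mannose activation feeds both N-glycans and GPI anchors through GDP-mannose. Gmppb, which catalyses the making of this donor, had 9.85 and 2.14 normalised counts in eGFP libraries, from 11 and 2 reads, and 559 and 679 in mVEGF-C libraries. Here the mVEGF-C libraries were close to each other. The mean ± SD was 5.99 ± 5.45 and 619 ± 85.2 (n = 2 each), which gave 6.72 on the log2 scale (SE 1.31, limma adjusted p = 0.000148), which lost the threshold without eGFP 2 (5.83, limma adjusted p = 0.235). Gmppb lies on chromosome 9 (108049242 to 108052801), and 937 of its 2785 exonic bases are shared with Rnf123 on the opposite strand, so its value is uncertain where the counting did not use strand. Pmm2, which makes the mannose phosphate used by Gmppb, had 580 and 241 against 2204 and 723 (1.75, SE 1.13, limma adjusted p = 0.611). Pmm1, its paralog, was at 0.51 with overlapping groups.

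All 7 genes of lipid-linked oligosaccharide assembly had groups that did not overlap, but not in the same direction: 4 were higher and 3 lower in mVEGF-C libraries, beside 19.4% and 19.8% of all genes. Picked out after the values were seen, this count is a description. Alg3, the mannosyltransferase that takes over on the inner side of the ER membrane, had 12.5 and 2.14 normalised counts in eGFP libraries, from 14 and 2 reads, and 329 and 88.3 in mVEGF-C libraries. The mean ± SD was 7.34 ± 7.35 and 209 ± 170.2 (n = 2 each), which gave 4.72 on the log2 scale (SE 1.31, limma adjusted p = 0.0215). The call was lost without eGFP 1, eGFP 2 or mVEGF-C 1 (limma adjusted p = 0.173, 0.999 and 0.169). Alg3 lies on chromosome 16 (20605374 to 20611735), and 273 of its 1690 exonic bases are shared with genes of the opposite strand.

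Alg13 and Alg14 are the catalytic and the membrane subunit of an enzyme that acts before Alg3 and adds an N-acetylglucosamine. They lay on opposite sides of 0. Alg13 had 25.1 and 98.3 in eGFP and 1346 and 391 in mVEGF-C libraries (log2 fold change 3.84, SE 1.26, limma adjusted p = 0.0787). Alg14 had 873 and 433 against 49.1 and 163 (-2.77, SE 1.24, limma adjusted p = 0.308). Neither passed the test, and the difference between them was not tested. Among the mannosyltransferases, Alg2 had 1466 and 2774 against 770 and 218 (-2.29) and Alg9 464 and 1007 against 19.2 and 163 (-3.57, SE 1.26, limma adjusted p = 0.119). Without mVEGF-C 2, Alg13 and Alg9 passed, at 4.73 and -5.08 (limma adjusted p = 0.0309 and 0.0145). Alg6, which adds the first glucose, had 1012 and 1179 against 6300 and 2128 (1.74), and the mannosyltransferase Alg11 was at 0.72.

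Transfer of the glycan to protein and its first trimming showed no such spread, but their genes were also more abundant. The median level was 4021 normalised counts for the oligosaccharyltransferase and 2935 for the trimming group, beside 465 for lipid-linked oligosaccharide assembly. Standard errors were smaller at high levels (0.67 for Stt3b, 1.26 for Alg13). The part of level in the narrower spread was not tested. The 5 oligosaccharyltransferase subunits lay between -0.60 (the catalytic subunit Stt3a) and 0.95 (Dad1), and none passed. Stt3b, the other catalytic subunit, had 6123 and 3474 in eGFP and 7473 and 7658 in mVEGF-C libraries (0.71, interval -0.59 to 2.02). It was the only 1 of the 5 whose groups did not overlap, with mVEGF-C the higher, as for 19.4% of all genes. Rpn1 and Rpn2 were at 0.65 and -0.27. For Stt3a, a single library stood out, with 9495 in eGFP 2 beside 1519 in eGFP 1. The glucosidase subunit Ganab and the folding sensors Uggt1 and Uggt2, which put glucose back on misfolded glycoproteins, were at 0.49, -0.18 and 0.26, each with overlapping groups.

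Golgi processing of N-glycans gave 0 of 8 enzymes past the test in limma, edgeR or DESeq2, and 0 with an unadjusted limma p under 0.05. Mgat5, which makes the branch that carries long N-acetyllactosamine chains, had 1726 and 1672 against 7063 and 3530 (1.56, SE 0.84, limma adjusted p = 0.477). It was the only 1 of the 8 with groups apart, with mVEGF-C the higher, as for 19.4% of all genes. Mgat2 was at 1.07, Mgat1 at -0.18 and Mgat4c at 0.42. The mannosidase Man1a, the most abundant of the group by normalised count, had 8604 and 11786 against 5384 and 10491 (-0.42, interval -1.55 to 0.71). Man2a1, Man1a2 and Man1c1 lay between -0.46 and 0.36.

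GPI anchors hold many surface proteins on the membrane, and their synthesis genes held the 1 enzyme that fell. Pigo, which adds ethanolamine phosphate to the third mannose of the anchor, had 725 and 3752 normalised counts in eGFP libraries and 17.1 and 191 in mVEGF-C libraries. The libraries within a group differed by 2.37 and 3.41 on the log2 scale, less than the difference between the groups. The mean ± SD was 2239 ± 2140.2 and 104 ± 123 (n = 2 each), which gave -4.81 on the log2 scale (SE 1.22, limma adjusted p = 0.00856). Pigo missed the threshold without eGFP 1, eGFP 2 or mVEGF-C 1 (limma adjusted p = 0.0826, 0.999 and 0.239, with a log2 fold change of -3.10 in the last). Pigo lies on chromosome 4 (43017635 to 43025819) and shares no exonic base with another annotated gene.

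The other 9 GPI genes did not pass. Pigu, a subunit of the transamidase that attaches the anchor, had 3188 and 4173 in eGFP and 1602 and 111 in mVEGF-C libraries (-3.11, SE 1.03, limma adjusted p = 0.0833), and passed without mVEGF-C 1 (-5.03, limma adjusted p = 0.00571). Its partners Pigk and Pigt were at 1.00 and -0.31, with overlapping groups. Pigb, the mannosyltransferase that acts before Pigo, had 1687 and 1618 against 683 and 197 (-2.17, SE 1.11, limma adjusted p = 0.426). Of its 10434 exonic bases, 4030 are shared with genes of the opposite strand. Pign was at -1.48, also with its groups apart. In all, 4 of the 10 GPI genes were apart with mVEGF-C the lower and 2 with it the higher. This is beside 19.8% and 19.4% of all genes. Piga, the catalytic subunit of the first step, stood on the other side at 29.5 and 27.8 against 408 and 74.3 (2.57, SE 1.30, limma adjusted p = 0.422). Pigm, Pigg and Pigx were at 0.63, 0.70 and 0.28.

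**Figure D3:**
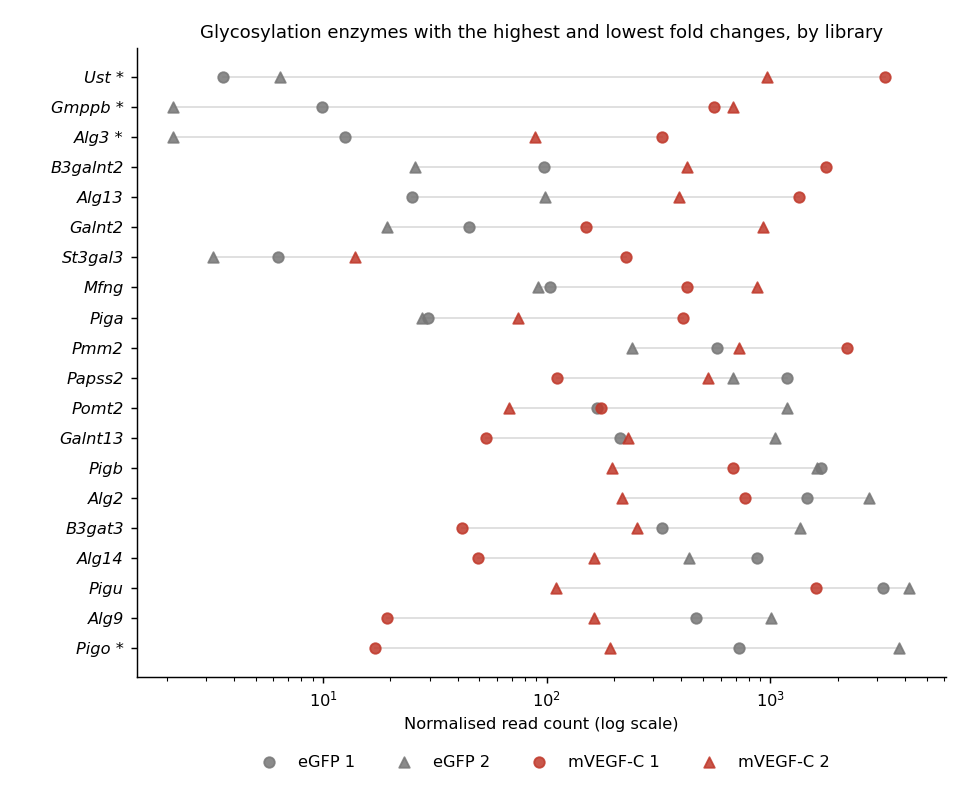
Normalised read count (log scale) in each of the 4 libraries for the 10 enzymes with the highest and the 10 with the lowest fold changes among those with a mean of at least 50, ordered by fold change, with grey for eGFP, red for mVEGF-C, circles for replicate 1 and triangles for replicate 2. Asterisks mark an adjusted p under 0.05, and Pomt2 and Galnt13 are the 2 of the 20 whose groups overlap.

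O-linked modifications of mannose, fucose and glucose had 5 of 6 genes above 0, beside 49.5% of all genes, and 0 past the limma test. B3galnt2 and Mfng had a limma p under 0.05 before adjustment and were past the threshold in DESeq2. B3galnt2, which extends O-mannose on the matrix receptor dystroglycan, had 97.6 and 25.7 in eGFP and 1780 and 426 in mVEGF-C libraries (4.09, SE 1.25, limma adjusted p = 0.0506). It is thus just outside the threshold, and 325 of its exonic bases are shared with Tbce on the opposite strand, which stood at 1.91. Mfng, a fringe enzyme that modifies Notch receptors, had 104 and 91.9 against 423 and 874 (2.63, SE 1.24, limma adjusted p = 0.350). Poglut1 and Pofut1, which put the first glucose and fucose on Notch, were at 1.37 and 0.69. The groups were apart for these 4 genes, with mVEGF-C the higher, as for 19.4% of all genes. B3glct was at 0.24, and Pomt2, which starts O-mannose chains, had 168 and 1188 against 175 and 67.8 (-2.03), with overlapping groups.

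Mucin-type O-glycans are started by the Galnt family, of which 0 of 10 passed in limma. Galnt2, the 1 with an unadjusted p under 0.05, passed in DESeq2. It had 44.8 and 19.2 in eGFP and 151 and 925 in mVEGF-C libraries (3.62, SE 1.29, limma adjusted p = 0.126). Most of its exonic bases are shared with the overlapping gene Gm20388, so its value is uncertain. The most abundant member, Galnt1, had 6009 and 13793 against 4591 and 6190 (-0.77, SE 0.63). Galnt15, Galnt17 and Galnt18 were at -0.95, -1.27 and -1.18, with the groups apart and mVEGF-C the lower, as for 19.8% of all genes. Galnt2 had them apart with mVEGF-C the higher, as for 19.4%. Galnt13 was at -2.08 with overlapping groups. Galnt10, Galnt11, Galnt7 and Galnt5 were at -0.92, 0.66, 0.27 and 1.66. The value of Galnt5 rested on mVEGF-C 1, with 70.5 against 5.37 to 6.41 in the other libraries.

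Extension and capping enzymes gave 0 calls among 6 galactose and N-acetyllactosamine, 11 sialic acid and 2 fucose transferases in limma. The 1 of these with an unadjusted p under 0.05, St3gal3, a sialyltransferase, passed in DESeq2. It had 6.27 and 3.21 in eGFP libraries, from 7 and 3 reads, and 225 and 13.9 in mVEGF-C libraries (3.39, SE 1.31, limma adjusted p = 0.183). The mVEGF-C libraries thus stood far apart, and without mVEGF-C 2 it passed (5.36, limma adjusted p = 0.0114). St3gal2 had 792 and 679 against 2611 and 1853 (1.58), and St3gal6, the most abundant sialyltransferase, 4272 and 2510 against 6739 and 5687 (0.92, interval -0.52 to 2.36). St6galnac4 and St8sia1 were at 1.55 and 1.09. These 5 of the 11 sialyltransferases had groups apart with mVEGF-C the higher, beside 19.4% of all genes, and St6galnac5 (-1.57) had them apart with eGFP the higher. St6gal2 was at 0.76, and St6galnac6, St6gal1, St6galnac2 and St8sia6 lay between -0.36 and -1.04.

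B4galt1, which adds galactose to N-acetylglucosamine, had 3222 and 6701 against 3120 and 2770 (-0.66, interval -2.19 to 0.87). B4galt5, which makes lactosylceramide, was at -1.25, and B3gnt9 had 536 and 320 against 134 and 318. For these 3 the groups were apart with mVEGF-C the lower, as for 19.8% of all genes. B4galt3, B3gnt2 and B4galt4 were at 0.57, 0.16 and -0.14. Fut8, which adds the core fucose, and Fut11 were at 0.37 and 0.11, with overlapping groups.

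**Figure D4:**
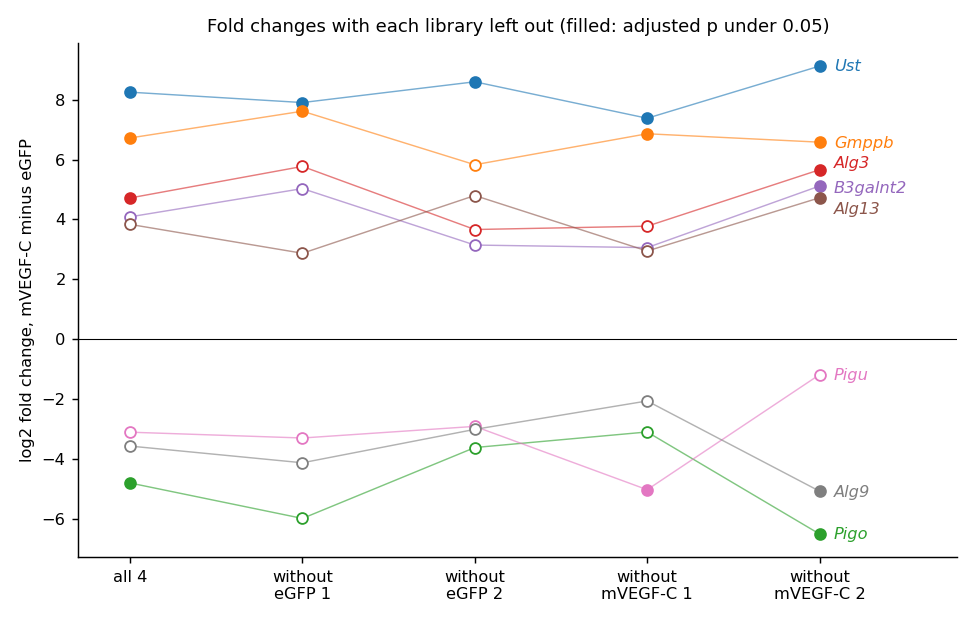
Log2 fold change, mVEGF-C minus eGFP (vertical), with all 4 libraries and with each library left out (horizontal), for the 8 enzymes with the smallest p, where filled points have an adjusted p under 0.05. Ust is the 1 enzyme filled in every position (7.38 to 9.13), and Pigo goes from -6.51 to -3.10.

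Genes that supply these enzymes or receive their products were read from further lists. Of 10 genes tested, all transporters of nucleotide sugars or sulfate but for the phosphatase Impad1, Slc35a1 fell. Slc35a1 carries the sialic acid donor into the Golgi. It went from 972 and 5105 normalised counts in eGFP to 199 and 87.3 in mVEGF-C libraries (-4.07, SE 1.16, limma adjusted p = 0.0281). The threshold was missed without eGFP 1, eGFP 2 or mVEGF-C 2 (limma adjusted p = 0.126, 0.999 and 0.0982) and without a variance trend (0.132). The other 9 genes did not pass. Of the 10, 3 were above 0 (median -0.44), beside 49.5% of all genes (median -0.02), and the highest was Slc35a5 at 2.89. None of 14 nucleotide sugar synthesis genes passed (9 above 0, median 0.22, 1 with an unadjusted p under 0.05). The highest was Pgm2, a sugar phosphate mutase, at 2.68, and the lowest Cmas, which makes the sialic acid donor carried by Slc35a1, at 1236 and 2439 against 194 and 1025 (-1.96, SE 1.09, limma adjusted p = 0.502).

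Of 27 further glycosylation genes outside the name pattern 0 passed in limma. Before adjustment, 7 had a limma p under 0.05 (1 higher and 6 lower, beside 5.09% and 6.7% of all genes). In all, 12 were above 0, beside 49.5% of all genes, and the median was -0.56, beside -0.02. Chpf and Chpf2 encode partner subunits of the chondroitin polymerase and stood on opposite sides. Chpf had 29.5 and 20.3 in eGFP and 779 and 263 in mVEGF-C libraries (4.15, SE 1.29, limma adjusted p = 0.0570), and Chpf2 had 698 and 1153 against 80.1 and 169 (-2.93, SE 1.22, limma adjusted p = 0.235). In DESeq2 both passed, with adjusted p = 0.000148 and 0.0154. Gcnt2, which branches N-acetyllactosamine chains, was at -2.98. Of 13 proteoglycan core proteins 0 passed in limma, 1 had an unadjusted p under 0.05, 8 were above 0, and the median was 0.09, with Spock2 lowest at -3.26 and Spock3 highest at 1.51. Decorin and biglycan, which carry chondroitin or dermatan sulfate and are abundant in fibroblasts, were at 0.10 (Dcn) and 0.09 (Bgn). The heparan sulfate proteoglycan perlecan (Hspg2) was at 0.43 (SE 0.32, limma adjusted p = 0.694).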

How the data were processed

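The deposited table holds 9114 genes in 4 libraries, and its values, a signal made by the authors, are read counts divided by 1 size factor per library. Per the submitters' processing notes, FastQC, Trimmomatic, Salmon and DESeq2 were used on the build mm10. The annotation, strand setting and tool versions were not given in the sources used here. Divided by the smallest nonzero value in its library, every value came out whole (100% within 0.001). The whole counts recovered in this way are called reads here, and whether they were rounded from Salmon estimates is not given.

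Within a group, libraries differed by at most 2.83 (eGFP) and 4.24 (mVEGF-C) on the log2(reads + 1) scale. The rows thus appear limited by replicate agreement: a gene with a large difference could stay only if that difference followed the groups, and p-values are too small by an unknown amount.

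The comparison used limma 3.58.1 in R 4.3.3 (eBayes with a variance trend, two-sided) on log2(normalised count + 1) over 9063 genes (mean at least 10), with Benjamini-Hochberg adjustment over all of them. Fold changes are on this scale, which understates those of low genes. The prior degrees of freedom were infinite, so a gene's own replicate spread did not enter its p-value or interval. edgeR 4.0.16 and DESeq2 1.42.0 were run on the recovered reads, and called 67 higher and 79 lower genes (edgeR) and 283 higher and 318 lower genes (DESeq2). As a check of the code, the fits were run on simulated counts with planted changes. That simulation did not limit rows by replicate agreement or take its spread from these libraries, so it does not bear on the p-values here. Coordinates and exon lengths are from GENCODE vM21 (GRCm38, which is mm10).

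Enzymes named by rule passed the test, were among the 10 highest or 10 lowest fold changes with a mean of at least 50, or had the highest mean of their role, and the text was to describe Ust and Gmppb in any case. From the further lists, genes that passed and the highest and lowest fold change with that mean were named. Other names were chosen after their values were seen. The enzymes, lists and rules were chosen with earlier results of these data known.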

Additional observations from a re-analysis of the deposited data

How the results depend on the processing

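The enzymes called numbered 3 higher and 1 lower. The higher count was 9 with DESeq2 on recovered reads, and it ranged from 1 to 6 with each library left out. The lower count was 0 without a variance trend, and it ranged from 0 to 2 with each library left out. Leaving out eGFP 2 left Ust alone. Without a variance trend, 2 were called, Ust and Gmppb (Alg3 and Pigo had limma adjusted p = 0.0876 and 0.138). In edgeR the same 4 enzymes were called as in the limma fit. DESeq2 added Alg13, B3galnt2, Galnt2, Mfng, Piga and St3gal3. B3galnt2 also passed with a pseudocount of 0.5, with quantile normalization and with the replicate block (limma, adjusted p = 0.0466, 0.0342 and 0.0498).

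Over all genes, the calls were 75 higher and 119 lower, against 15 and 26 without a trend, 283 and 318 in DESeq2, 19 and 19 without eGFP 1, 5 and 0 without eGFP 2, and 104 and 188 without mVEGF-C 2. With 1 library left in a group, that library is assumed to vary like the others.

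Some enzymes near 0 changed sign. Chst15 became 0.011 in edgeR, Fut11 became -0.034 in edgeR and -0.051 in DESeq2, and Sulf2 became -0.0055 with quantile normalization, -0.023 with a common total and -0.013 with a common upper quartile. With each library left out, the ranges crossed 0 for Chst15 (-0.25 to 0.20), Sulf2 (-0.34 to 0.46), Fut11 (-0.95 to 1.17), Pigt (-1.28 to 0.66), Uggt1 (-0.84 to 0.48), Man1a (-0.90 to 0.059) and Xylt1 (-0.55 to 3.28). The cause of these changes was not tested.

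Whether libraries with the same replicate number belong together is not given in the labels used here. The correlation over genes between the groups' library differences was 0.00013, which does not settle it, as each group gives a single difference. The replicate block gave 4 higher and 1 lower enzymes. Of 704 values of single genes under the alternatives, 653 kept direction and side of the threshold, 13 lost the threshold, 21 gained it and 17 changed sign. At 2 to 14 reads, as in the eGFP libraries for Ust, Gmppb, Alg3 and St3gal3, the size of a fold is set by few reads.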

Other observations

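Lysosomal enzymes that take glycosaminoglycans and other glycans apart gave 0 of 16 genes past the test (limma, adjusted p under 0.05). Before adjustment, 0 had a limma p under 0.05. Of the 16, 6 were above 0, beside 49.5% of all genes, with a median log2 fold change of -0.33 beside -0.02. The highest was Hyal2, a hyaluronidase, at 1313 and 298 normalised counts in eGFP and 1154 and 3352 in mVEGF-C libraries (1.65, SE 1.05, limma, adjusted p = 0.604). Arsa, a sulfatase of sulfated lipids, was lowest at -1.77. For Hgsnat, of heparan sulfate breakdown, and for the protective protein gene Ctsa, both mVEGF-C libraries lay below both eGFP libraries (-1.63 and -0.86), while groups apart in this direction were seen for 19.8% of all genes.

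The share of genes for which a given library was the highest or lowest of the 4 was counted for the enzymes and for all genes. The library mVEGF-C 1 was highest for 30.3% of the enzymes and 27.9% of all genes, and eGFP 2 was lowest for 32.6% and 27.4%.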
